A study of Mus musculus with 6 samples.

Results

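The genes of polyamine metabolism were followed in mouse mammary stem cells with and without MLL3. The set was fixed by name and holds 10 genes: the catabolic enzymes Sat1, Smox and Paox, the synthetic enzymes Odc1, Srm, Sms and Amd1, and the regulators of ornithine decarboxylase Oaz1, Oaz2 and Azin1. A value was available for 7 of the 10, out of 22180 genes tested. Paox and Amd1 were not paired with a probe set here, and Sms was listed only on a probe set shared with its pseudogene, so these 3 genes are not reported. The set was proposed from the comparison of Mll3-null with wild-type (WT) cells, with Sat1 already known to differ, so the members' differences below are descriptions and carry no test of their own.

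Putrescine, spermidine and spermine are small positively charged molecules that bind RNA and DNA and are needed for growth. Ornithine decarboxylase (Odc1) makes putrescine, and spermidine synthase (Srm) and spermine synthase (Sms) extend it with groups supplied through the decarboxylase Amd1. Antizymes (Oaz1, Oaz2) bind ornithine decarboxylase, send it to the proteasome and restrain polyamine uptake, and the antizyme inhibitor Azin1 frees it again. On the catabolic side, Sat1 acetylates spermidine and spermine for export or for oxidation by Paox, while Smox oxidizes spermine directly and releases hydrogen peroxide.

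The cells were cultured mammary stem cells grown as organoids, from lines made by CRISPR. There were 3 arrays of WT cells and 3 of Mll3-null cells, each a biological replicate. MLL3 is the histone methyltransferase encoded by Kmt2c. The labels do not say whether a replicate was a separate line, clone or culture, so the errors below reflect only the spread between these arrays. An SD is that of the gene itself, while a moderated SE draws the gene's spread toward that of all genes. The spread between arrays may be partly technical and need not be the spread between independent lines. The values are on a log2 scale, and a difference is Mll3-null minus WT.

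The epithelial identity of the cultures could be read from the arrays. Epcam lay between 10.72 and 10.94 and Krt8 between 10.16 and 10.57 on all 6 arrays. The fibroblast, immune, endothelial and adipocyte lists had array means of 4.27 to 4.53, 3.71 to 3.90, 3.78 to 3.88 and 3.65 to 3.91, near the array medians of 4.35 to 4.40 or below them, and Ptprc, Dcn, Cdh5 and Fabp4 stayed under 4 on every array. Some markers in these lists were above the medians. Col1a1 lay between 5.40 and 5.65, Cd68 between 4.81 and 5.61, Thy1 between 4.66 and 4.91 and Pecam1 between 4.39 and 5.07. Pdgfra lay between 4.55 and 5.47 on 5 arrays and at 6.32 in Mll3-null replicate 2. Col1a2, Col3a1 and Plin1, at most 4.70, 4.68 and 4.77, were above the medians on some arrays only. The part of other cells in the members' values was not tested. Mll3-null replicate 3 stood apart, with the basal genes Krt14 at 6.65 against 11.74 to 12.43 and Trp63 at 5.02 against 7.86 to 8.84 on the other arrays. The luminal progenitor genes Elf5 and Kit were highest in Mll3-null replicates 2 and 3, with Elf5 at 8.51 and 9.02 against 6.0 to 7.64 elsewhere and Kit at 8.76 and 8.16 against 5.38 to 6.83. The mean of 11 proliferation genes, given as the deviation from the 6-array mean, was 0.61, -0.17 and 0.21 in WT replicates 1 to 3 and 0.55, -0.36 and -0.84 in Mll3-null replicates 1 to 3. Kmt2c itself was at 6.63, 5.58 and 5.82 in WT and at 5.84, 6.42 and 6.07 in Mll3-null arrays, and since the position of its probe set relative to the CRISPR edit is unknown here, it does not check the labels. Each member's difference is therefore also given without Mll3-null replicate 3.

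Sat1 and Smox were the members whose arrays did not overlap between the groups, and they lay in opposite directions. The 250 bases before their annotated starts, from RefSeq (GRCm38.p6), are shown because these are the genes the description turns on. Sat1 is on the minus strand at chrX:155216450-155216699 and Smox on the plus strand at chr2:131491612-131491861. Capitals mark the GC box GGGCGG on either strand and, in Smox, the antioxidant-type motif TGACNNNGC.
Sat1: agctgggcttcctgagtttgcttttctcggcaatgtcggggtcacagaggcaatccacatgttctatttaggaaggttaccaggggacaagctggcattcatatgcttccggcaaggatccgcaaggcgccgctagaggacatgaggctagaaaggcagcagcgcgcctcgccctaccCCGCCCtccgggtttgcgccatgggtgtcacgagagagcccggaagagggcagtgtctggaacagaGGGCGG
Smox: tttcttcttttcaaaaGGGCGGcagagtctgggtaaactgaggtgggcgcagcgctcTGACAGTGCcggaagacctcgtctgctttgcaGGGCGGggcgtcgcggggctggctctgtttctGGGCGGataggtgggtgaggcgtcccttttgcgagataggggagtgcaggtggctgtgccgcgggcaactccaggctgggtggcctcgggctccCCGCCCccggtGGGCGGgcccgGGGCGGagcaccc

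The Sat1 window held the GC box at 72 to 67 and at 6 to 1 bases before the start. The Smox window held it at 6 places, and the antioxidant-type motif at 193 to 185 bases before the start. Over 32851 windows of the same length, 32.7% held the GC box and 10.2% the antioxidant-type motif, both strands counted. The E-box bound by MYC and MAX, CACGTG, was searched as well and lay in 6.0% of windows. The core of the HIF element, ACGTG, which the E-box contains, lay in 16.6%. The TATA box TATAAA was in 12.4% of windows, and the CAAT box, spelled CCAAT, in 33.8%. Windows were found for 5 of the 7 measured members. The E-box, the HIF core and the TATA box were in 0 of these 5, the GC box was in 4, the antioxidant-type motif in 2 (Smox and Oaz1) and the CAAT box in 1 (Oaz1). These letters describe the windows only.

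Sat1, the acetyltransferase that starts polyamine breakdown, was lower in Mll3-null cells. It was at 10.24, 10.48 and 10.28 in WT replicates 1 to 3 and at 9.71, 9.76 and 9.48 in Mll3-null replicates 1 to 3. Every Mll3-null array lay below every WT array, and the gap between the nearest arrays was wider than the spread inside either group. The group means were 10.33 ± 0.13 and 9.65 ± 0.15 (SD, n = 3 each), a difference of -0.68 ± 0.12 (moderated SE), or a level 1.61-fold lower. Without Mll3-null replicate 3 the difference was -0.60, and without WT replicate 2, the highest array, it was -0.61. Expressed genes of the X chromosome, on which Sat1 lies, had medians within -0.03 to 0.04 of their 6-array median on every array. Whether fewer cells with Sat1 or less Sat1 RNA per cell underlies such a value cannot be told apart in bulk RNA.

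Smox, the spermine oxidase, was slightly higher in Mll3-null cells. WT replicates 1 to 3 stood at 8.59, 8.78 and 8.80 and Mll3-null replicates 1 to 3 at 8.83, 8.87 and 8.95. The groups did not overlap, but WT replicate 3 and Mll3-null replicate 1 all but met, and much of the distance came from WT replicate 1. The means were 8.73 ± 0.12 and 8.89 ± 0.06 (SD, n = 3 each), a difference of 0.16 ± 0.10 (SE), or 1.12-fold. Leaving out WT replicate 1 brought it to 0.09 and leaving out Mll3-null replicate 3 to 0.13.

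**Figure D1:**
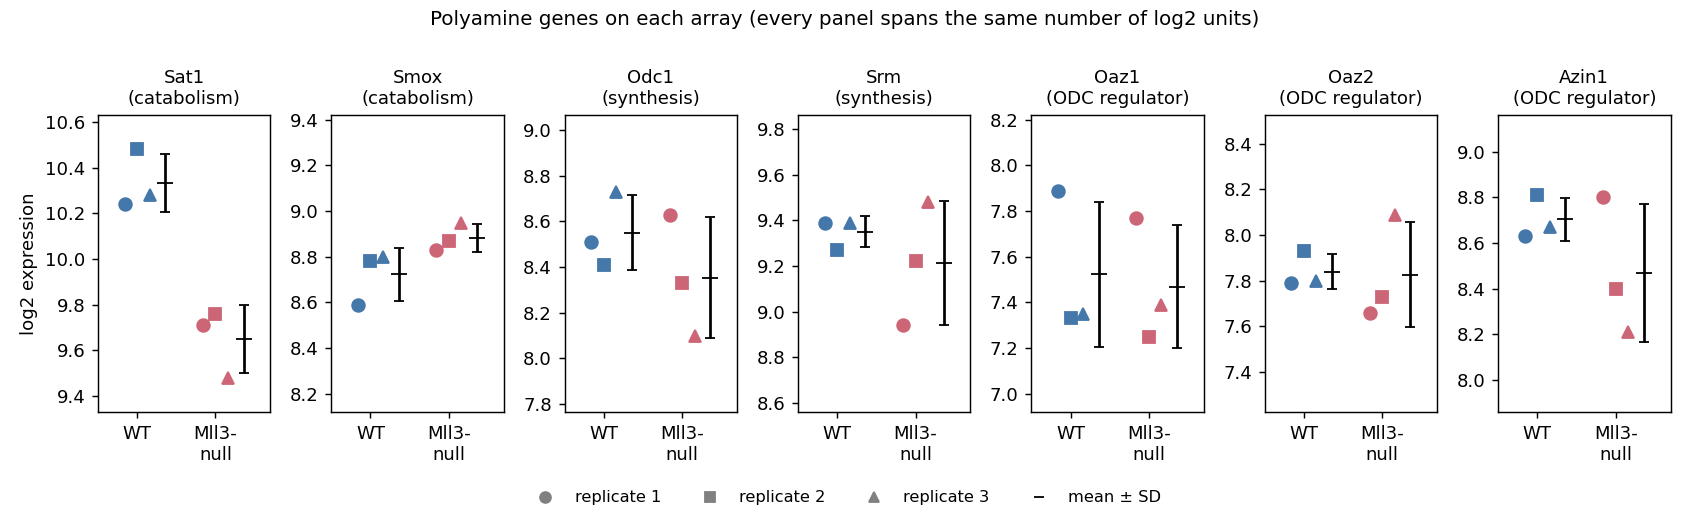
Log2 expression of the 7 measured polyamine genes on each array; every panel spans the same number of log2 units, marker shapes are replicates 1 to 3, and black bars are the mean ± SD of 3 arrays. Sat1 lies between 9.48 and 9.76 in Mll3-null and between 10.24 and 10.48 in WT arrays; Smox is also separated, narrowly and upward, and the other 5 genes overlap.

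The synthetic enzymes overlapped between the groups. Odc1, the entry enzyme of the pathway, was at 8.51, 8.41 and 8.73 in WT and at 8.63, 8.33 and 8.10 in Mll3-null replicates 1 to 3. Mll3-null replicate 1 lay inside the WT range and the other Mll3-null arrays below it. The means of Odc1 were 8.55 ± 0.16 and 8.35 ± 0.26 (SD), and the difference of -0.19 ± 0.16 (SE) shrank to -0.07 without Mll3-null replicate 3. That array was also the lowest for the proliferation genes (-0.84), and Mll3-null replicate 1 (0.55) was among their highest. Among the WT arrays the order differed. The highest proliferation mean was in replicate 1 (0.61) and the highest Odc1 in replicate 3 (8.73), whose proliferation mean was 0.21. The part of proliferation in the Odc1 values was not tested.

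Srm, which makes spermidine, went the other way among the Mll3-null arrays. Its WT arrays were close together, at 9.39, 9.27 and 9.39, while Mll3-null replicates 1 to 3 stood at 8.94, 9.22 and 9.48 and so included both the lowest and the highest of the 6 values. The difference was -0.14 ± 0.15 (SE), moving to -0.28 when Mll3-null replicate 3 was left out and to -0.002 when replicate 1 was. Odc1 and Srm, neighbouring steps of synthesis, thus had their lowest values on different Mll3-null arrays.

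The regulators of ornithine decarboxylase did not separate the groups either. Azin1, the antizyme inhibitor, was at 8.63, 8.81 and 8.67 in WT and at 8.80, 8.40 and 8.21 in Mll3-null replicates 1 to 3. As with Odc1, Mll3-null replicate 1 was within the WT range and replicates 2 and 3 were below it. The difference of -0.24 ± 0.16 (SE) became -0.11 when Mll3-null replicate 3 was left out and -0.40 when replicate 1 was.

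Oaz1, the major antizyme, was at 7.89, 7.33 and 7.35 in WT and at 7.77, 7.25 and 7.39 in Mll3-null replicates 1 to 3. Replicate 1 was the high array in both groups, and the difference of -0.05 ± 0.20 (SE) turned to 0.13 without WT replicate 1 and was -0.01 without Mll3-null replicate 3. Oaz1 lies on chromosome 10, whose 443 expressed genes had a median 0.22 above their 6-array median in WT replicate 1 and between -0.05 and 0.01 elsewhere; the part of this in Oaz1 was not tested. Another probe set, listed with both Oaz1 and its pseudogene, was not used, since its signal cannot be given to either.

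Oaz2, the second antizyme, was measured by 2 probe sets of its own. The brighter was at 7.79, 7.93 and 7.80 in WT and at 7.66, 7.73 and 8.09 in Mll3-null arrays, a difference of -0.01 ± 0.13 (SE) that became -0.14 without Mll3-null replicate 3. The dimmer was at 6.73, 6.81 and 6.78 in WT and at 6.60, 6.38 and 7.01 in Mll3-null arrays, a difference of -0.11. On both probe sets Mll3-null replicate 3 was the highest array and the other Mll3-null arrays lay below all WT arrays, so the arrays of this genotype disagreed in the same way on each.

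Across the members, 6 of 7 had a lower mean in Mll3-null cells, with a median difference of -0.14 and a range from -0.68 to 0.16. Over the 8752 genes with a mean over 6, which all measured members exceed, 55.1% had a lower mean and the median difference was -0.02. The size of the Sat1 difference exceeded that of 97.3% of all tested genes, that of Azin1 80.5% and that of Odc1 73.7%, while Oaz2 exceeded 4.8%. By limma with Benjamini-Hochberg adjustment over all genes, 0 of the 7 members had an adjusted p under 0.05, as did 0.0% of the 22180 genes, whose smallest adjusted p was 0.84, the value for Sat1 as well. At an unadjusted p under 0.05, where 1093 genes stood (4.93%), Sat1 was the single member. Groups did not overlap for 1 member on the lower side, against 5.31% of all genes, and for 1 on the higher side, against 5.44%. Among genes with a mean over 6 these shares were 7.51% and 4.14%. Because the members were chosen on this contrast, nothing is read from these counts.

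**Figure D2:**
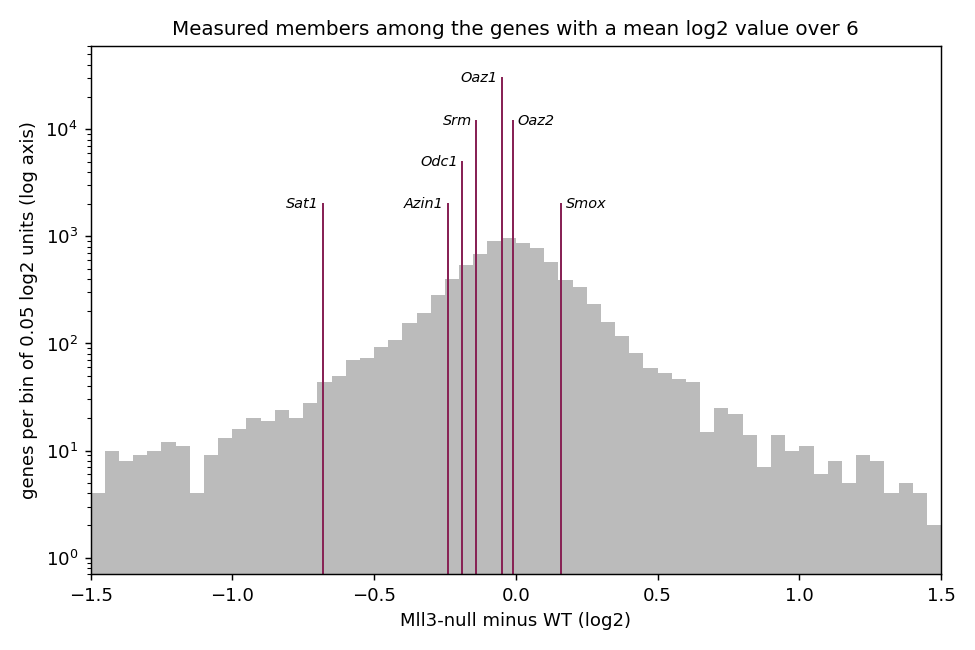
Histogram of the difference Mll3-null minus WT (log2) over the 8752 genes with a mean log2 value over 6, with a logarithmic count axis; vertical lines mark the 7 measured members, and the 57 genes beyond 1.5 units on either side are outside the axis. Sat1, at -0.68, lies in the lower tail, and the other members, from -0.24 to 0.16, lie in the body of the distribution.

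Mll3-null replicate 3 held the highest or the lowest of the 6 values for 6 of the 7 members: the highest for Smox, Srm and Oaz2 and the lowest for Sat1, Odc1 and Azin1. It held an extreme for 59.2% of the genes with a mean over 6, against 23.1% to 36.1% for the other arrays. Odc1, Srm, Oaz2 and Azin1 had SDs of 0.23 to 0.30 in Mll3-null arrays against 0.07 to 0.16 in WT arrays. The SDs of the other members were 0.15 in Mll3-null and 0.13 in WT arrays for Sat1, 0.06 and 0.12 for Smox, and 0.27 and 0.31 for Oaz1.

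Catabolism was then set against synthesis within each array, as the mean deviation of Sat1 and Smox from their 6-array means less that of Odc1 and Srm. Subtracting inside an array removes differences in overall signal. The balance was -0.07, 0.26 and -0.05 in WT replicates 1 to 3 and -0.04, 0.01 and -0.11 in Mll3-null replicates 1 to 3. The groups overlapped, and WT replicate 2 alone stood clear of the others. The means were 0.05 ± 0.19 and -0.05 ± 0.06 (SD, n = 3 each), a difference of -0.10 that became 0.01 without WT replicate 2. Sat1 and Smox offset each other in this mean.

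Split by gene, the catabolic side was not uniform. Sat1 less Smox was 0.42 ± 0.11 in WT and -0.42 ± 0.20 in Mll3-null arrays (SD, deviations from the 6-array mean), a difference of -0.84. With Sat1 alone in place of the catabolic mean, the balance against synthesis was 0.26 ± 0.23 in WT and -0.26 ± 0.16 in Mll3-null arrays, a difference of -0.52. With Paox, Sms and Amd1 unmeasured, each side of the balance rests on 2 genes.

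**Figure D3:**
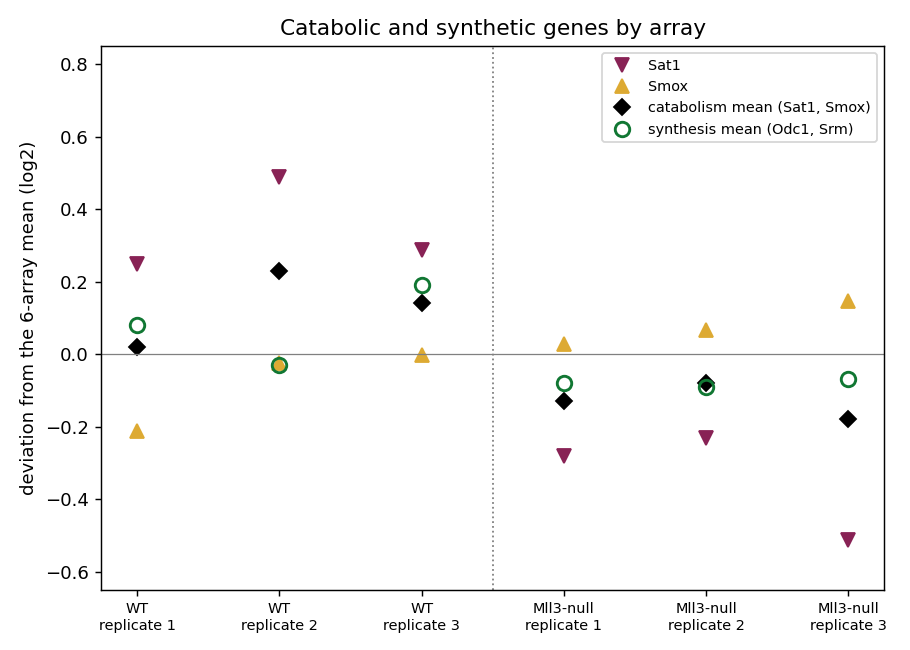
Deviation from the 6-array mean (log2) on each array for Sat1, Smox, their mean (catabolism) and the mean of Odc1 and Srm (synthesis). Sat1 is lower and Smox higher on the Mll3-null arrays, and the catabolism mean stays within 0.26 of the synthesis mean on every array.

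The rest of the pathway was read from 45 further genes, listed by role, of which 42 had a value. By the same limma fit 0 of the 42 passed the adjusted threshold of 0.05, higher or lower, as for 0.0% of all genes, and 2 had an unadjusted p under 0.05, where 4.93% of all genes did. Means were higher for 22 and lower for 20, with a median difference of 0.02, against 0.01 over all genes tested. The groups did not overlap for 5 genes on the higher side (Slc3a2, Aldh9a1, Mat2b, Maob and Mycn) against 5.44% of all genes tested, and for 1 on the lower side (Mtap), against 5.31%. Nothing particular to the pathway is read from these counts.

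Among other catabolic enzymes, 4 of 5 had a higher mean and none passed the correction. Aldh9a1, an aldehyde dehydrogenase that converts a putrescine-derived aldehyde to GABA, was at 8.55, 8.10 and 8.44 in WT and at 8.62, 8.94 and 8.90 in Mll3-null arrays. All Mll3-null arrays were above all WT arrays, if barely for replicate 1, and the difference was 0.46 ± 0.15 (SE, limma adjusted p = 0.84). Aldh9a1 lies on chromosome 1, whose 510 expressed genes had medians of 0.30 and 0.09 above their 6-array median in Mll3-null replicates 3 and 2; without replicate 3 the difference was 0.42, and the part of the chromosome in it was not otherwise tested.

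Sat2, named after its values were seen as the relative of Sat1, was at 6.31, 5.86 and 6.18 in WT and at 6.18, 6.79 and 7.10 in Mll3-null arrays. Its groups overlapped through Mll3-null replicate 1, and the difference of 0.57 ± 0.25 (SE, limma adjusted p = 0.84) was 0.37 without Mll3-null replicate 3. The higher Sat2 mean stood opposite the lower Sat1 mean. Maob, a monoamine oxidase, differed by 0.18 ± 0.10 (SE) but lay between 2.91 and 3.28, each below the lower quartile of its array (3.27 to 3.29; named after its values were seen, limma adjusted p = 0.84).

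Polyamine transport had 6 of 10 measured genes with a higher and 4 with a lower mean, none past the correction. Slc3a2, the heavy chain shared by several amino acid transporters and linked to polyamine export, was at 10.40, 10.29 and 10.23 in WT and at 10.87, 10.43 and 10.70 in Mll3-null arrays. The groups were separated by the small step from WT replicate 1 to Mll3-null replicate 2, with a difference of 0.36 ± 0.13 (SE, limma adjusted p = 0.84). The lysosomal polyamine exporter Atp13a2 differed by -0.16 ± 0.17 and the related transporter Atp13a3 by 0.14 ± 0.15 (SE), with overlapping groups. Atp13a2 was at -0.03 without Mll3-null replicate 3, -0.04 without WT replicate 2 and -0.29 without WT replicate 1. The Atp13a3 value came from Mll3-null replicate 1, at 9.36 against 8.79 to 8.94 on the other 5 arrays, and was -0.03 without it.

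Genes listed under precursor supply were lower by mean in 8 of 12 measured cases, against 48.5% of all genes tested, and none passed the correction. The list includes Azin2, an antizyme inhibitor like Azin1, which does not itself supply a precursor and is named here for that reason. The arginases, which make ornithine from arginine, varied more within groups than between them. Arg1 was at 6.72, 7.92 and 5.43 in WT and at 5.42, 6.64 and 6.07 in Mll3-null arrays, a difference of -0.65 ± 0.63 (SE) that became -0.03 without WT replicate 2. For Arg2 the WT arrays stood at 6.0, 6.80 and 6.05 and the Mll3-null arrays at 6.78, 5.67 and 5.16, a difference of -0.42 ± 0.43 (SE) that was -0.06 without Mll3-null replicate 3, -0.16 without WT replicate 2 and -0.87 without Mll3-null replicate 1. Mat2b, the regulatory subunit of a methionine adenosyltransferase, differed by 0.16 ± 0.09 (SE, limma adjusted p = 0.84; named after its values were seen).

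Use of spermidine and recycling of the by-product of synthesis were followed in 10 further genes. Hypusine, a modified amino acid made from spermidine on the translation factor encoded by Eif5a, is formed by Dhps and then Dohh. The differences were -0.07 ± 0.09 for Dhps, 0.07 ± 0.10 for Dohh and -0.07 ± 0.10 for Eif5a (SE), with 95% intervals from -0.28 to 0.14, from -0.17 to 0.31 and from -0.31 to 0.17, none past the correction. Dohh, like Oaz1, lies on chromosome 10, and its difference was 0.13 without WT replicate 1. The part of the chromosome in it was not otherwise tested. Mtap, which clears the methylthioadenosine left by Srm and Sms, was at 10.64, 10.55 and 10.57 in WT and at 10.38, 9.85 and 10.48 in Mll3-null arrays. All Mll3-null arrays were lower, and the difference of -0.35 ± 0.17 (SE, limma adjusted p = 0.84) was -0.15 without Mll3-null replicate 2. Enoph1, a later enzyme of methionine salvage, differed by -0.37 ± 0.21 (SE, limma adjusted p = 0.84), with Mll3-null replicate 1, at 7.62, above all WT arrays and replicates 2 and 3, at 6.95 and 6.81, below them. Leaving out Mll3-null replicate 3 gave a difference in Enoph1 of -0.22, and leaving out replicate 1 of that group gave -0.62.

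Of the other regulators, Myc, a transcription factor known to drive Odc1, was at 8.67, 8.74 and 8.73 in WT and at 8.58, 9.13 and 8.76 in Mll3-null arrays. The difference of 0.11 ± 0.15 (SE) rested on Mll3-null replicate 2 and was -0.05 without it. That array was not the highest of its group for Odc1 or Srm. Mycn, a relative of Myc, differed by 0.15 ± 0.09 (SE, limma adjusted p = 0.84) at levels of 4.01 to 4.33, near or below the array medians (named after its values were seen).

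**Figure D4:**
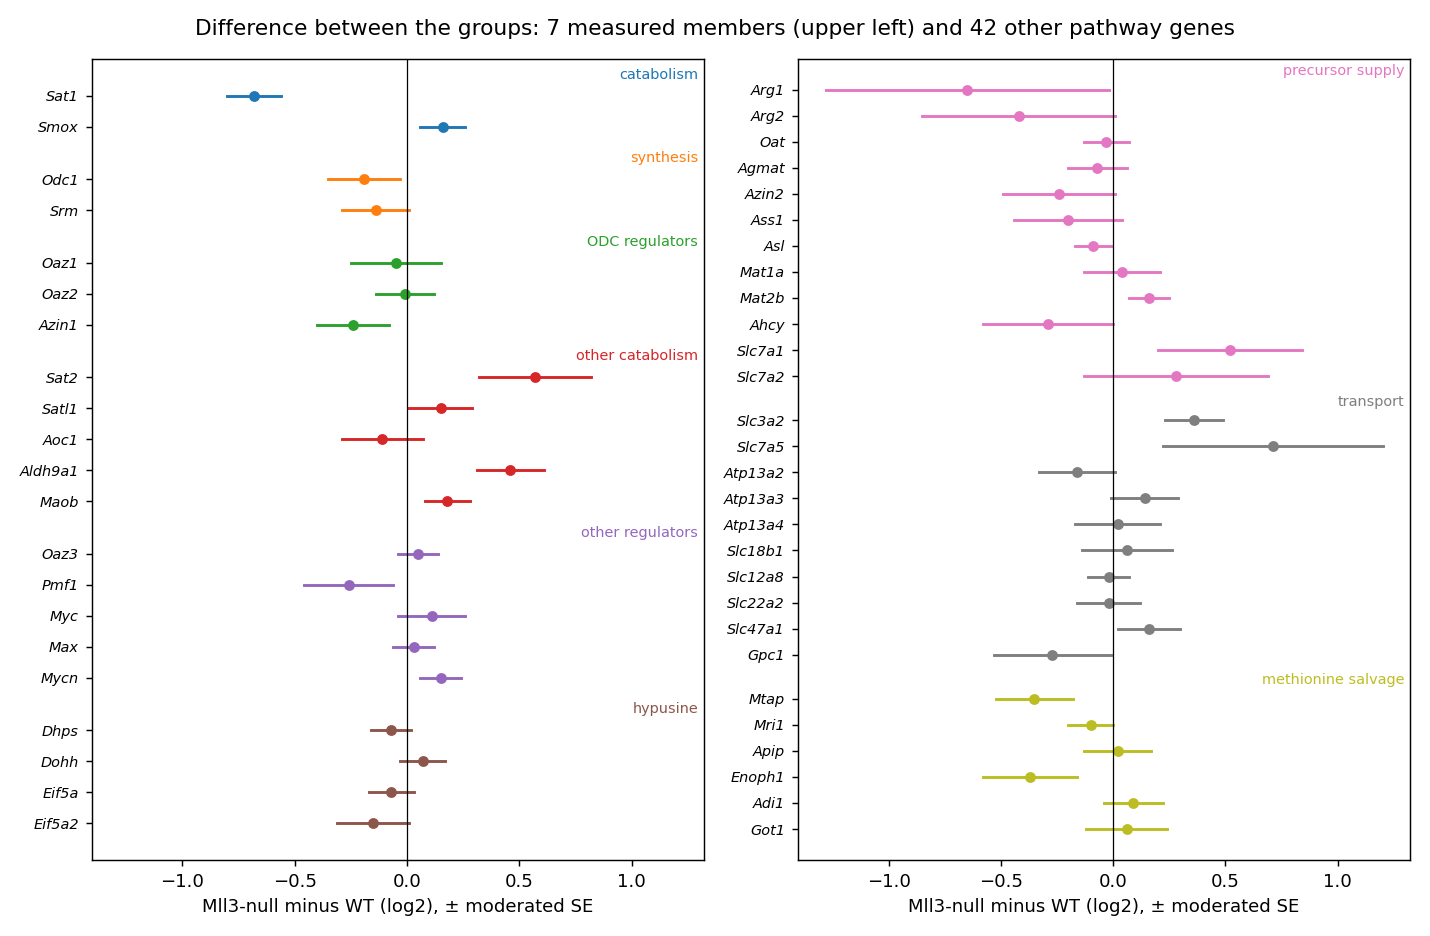
Difference Mll3-null minus WT (log2) with its moderated standard error from limma, for the 7 measured members and 42 other genes of the pathway grouped by role. The antizyme inhibitor Azin2 is drawn among the genes of precursor supply. Sat1 lies at -0.68 ± 0.12, Aldh9a1 at 0.46 ± 0.15 and Slc3a2 at 0.36 ± 0.13, and Arg1 has the widest bar, at -0.65 ± 0.63.

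The genes whose pattern was most like that of Sat1 were found by the root mean square difference of values centred on the 6-array mean, over 6 arrays and among genes with a mean over 6. The 3 closest were Eid2, Cdkn2b and Dcxr, each at a distance of 0.12 log2 units. Cdkn2b, a cell cycle inhibitor, was at 9.30, 9.68 and 9.42 in WT and at 8.59, 8.83 and 8.73 in Mll3-null arrays. Dcxr, a carbonyl reductase, stood at 7.81, 8.22 and 7.81 in WT and at 7.52, 7.24 and 7.0 in Mll3-null arrays. Eid2 was at 6.22, 6.41 and 6.27 in WT and at 5.91, 5.81 and 5.72 in Mll3-null arrays. Like Sat1, each was highest in WT replicate 2 and had all Mll3-null arrays below all WT arrays, which the choice by likeness to Sat1 favours. They lie on chromosomes 7, 4 and 11, apart from Sat1 on X.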

How the data were processed

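The members and gene lists were chosen with earlier results of these data known. The authors made biotinylated cRNA from total RNA, per the labels' protocols, and used Affymetrix Expression Console, per the submitters' processing notes. Sources used here give neither its version and settings nor a genome build. Range (1.72 to 13.56) and near-equal quartiles mark the deposited values as log2 expression on a common scale, on which a change in all RNA of a cell would be lost. The 6 columns carry sample names, with 0 other sample columns.

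Of 41345 probe sets, 23521 had 1 symbol. The one with the highest mean stood for a gene (22180 genes). Probe sets with several symbols (1814) or unlisted (16010) were not used. Differences come from limma 3.58.1 (R 4.3.3; lmFit, eBayes, two-sided, genotype only, all 6 arrays, Benjamini-Hochberg over all genes, threshold 0.05) and tested on simulated data. Chromosomes came from GRCm38.p6 through gene identifiers, and "expressed" means a 6-array mean over 6. The number of arrays limits the precision.

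Genes named outside the 10 members were, by rule, 11 fixed names (10 with a value), the 2 of smallest p in each direction among the other pathway genes, and the 3 nearest to Sat1; exceptions are marked. Alternatives covered the spread model, array weights, a filter on dim genes, normalization, the choice of probe set, a replicate block and left-out arrays.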

Additional observations from a re-analysis of the deposited data

How the results depend on the processing

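The count of genes past an adjusted p of 0.05 was 0 under all 16 alternatives, over all genes and among the 42 other pathway genes, by limma. The unadjusted count over all genes, 1093 as reported, ran from 716 without Mll3-null replicate 2 to 2742 without Mll3-null replicate 1. Sat1 stayed lower under all 15 alternatives (-0.74 to -0.60; adjusted p 0.20 to 1.00), and Smox, Odc1, Srm and Azin1 kept their directions, at 0.06 to 0.20, -0.33 to -0.07, -0.28 to -0.002 and -0.40 to -0.11.

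Directions changed for genes with differences near 0. With 1 array, or both WT replicate 1 and Mll3-null replicate 3, left out, Oaz1 ran from -0.21 to 0.17 and Oaz2 from -0.17 to 0.07. Under the same omissions Kmt2c ran from -0.11 to 0.43, Atp13a3 from -0.03 to 0.26, Myc from -0.05 to 0.23 and Eif5a from -0.14 to 0.002. The highest Oaz1, Kmt2c and Eif5a values and the lowest Oaz2 value came without that pair of arrays. Quantile normalization put Oaz2 at 0.007. The cause was not tested.

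The balance of catabolism against synthesis, -0.10, ran from -0.15 to 0.01 with arrays left out and was -0.52 with Sat1 alone on the catabolic side, which by construction drops Smox. A balance without Amd1 was not run, Amd1 having no value. The labels do not say whether the replicate numbers pair the samples. Same-numbered arrays correlated in their deviations from the group means at 0.03, 0.08 and 0.31, and differently numbered arrays at -0.29 to 0.22. With 3 arrays per group these correlations depend on one another, so they cannot decide whether the numbers are pairs. With the replicate block 0 genes were called, 1290 stood at an unadjusted p under 0.05, and Sat1 kept its difference of -0.68 (adjusted p = 0.76).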
